A study of Mus musculus with 6 samples.

Results

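The 10 genes described here encode antioxidant enzymes and textbook targets of the transcription factor NRF2, and were measured in the aorta of mouse fetuses exposed to a NOD1 ligand. They were found by gene name among the non-control probes of the arrays, which gave 11 probes for 10 of the 34797 gene names on the array, 2 probes for Hmox1 and 1 for each other gene. The rule uses gene names alone and no measured value, although the genes were chosen with earlier results of these data known. All fetuses were C57BL/6, came from Nod1 -/- dams mated with Nod1 +/- males, and had been exposed in utero when the dam received 500 µg of FK565, a synthetic NOD1 ligand, under the skin at E18.5, late in gestation. Aortic RNA was taken 6 h later from Nod1 +/- fetuses, which carry 1 working allele, and from Nod1 -/- littermates, with 3 one-colour arrays per genotype. No array came from a dam without the ligand, so both genotypes share the exposure and the knockout mother. The labels do not say if an array held 1 fetus or a pool, and the p-values therefore reflect variation among these samples, which may be technical.

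Superoxide dismutases turn superoxide into hydrogen peroxide: SOD1 in the cytosol, SOD2 in mitochondria and SOD3 in the extracellular matrix of the vessel wall. Peroxide is then removed with electrons from glutathione or thioredoxin. NRF2, encoded by Nfe2l2, is held at low level by KEAP1, and when it is released by oxidants or electrophiles it pairs with small MAF proteins at antioxidant response elements, where the heme-sensing repressor BACH1 competes with it. Genes for glutathione synthesis, thioredoxin reductase, sulfiredoxin, heme oxygenase and quinone reductase are its classical targets. Sod2 is known instead mainly as a target of NF-kB, the transcription factor downstream of NOD1, and SOD3 is a product of vascular smooth muscle.

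The promoters of the 3 genes that differed between genotypes are printed to show what stands next to their start sites. Each is the RefSeq window of GRCm38.p6 from 250 bases before to 50 bases after a transcription start, in the gene's own orientation, and capitals mark matches to the motifs searched on both strands. The antioxidant response element was searched as TGACNNNGC (core) and with a further A at its end (strict), so that each strict match is also a core match. An NF-kB site was searched as GGG and TTTCC separated by 2 bases (tight) or GGG and TTCC separated by 3 (loose), so that each tight match is also a loose one. The Txnrd1 window is the middle one of its 3 annotated starts, and was chosen because the other 2 windows held none of these forms.
Sod2, chr17:13007589-13007888, plus strand: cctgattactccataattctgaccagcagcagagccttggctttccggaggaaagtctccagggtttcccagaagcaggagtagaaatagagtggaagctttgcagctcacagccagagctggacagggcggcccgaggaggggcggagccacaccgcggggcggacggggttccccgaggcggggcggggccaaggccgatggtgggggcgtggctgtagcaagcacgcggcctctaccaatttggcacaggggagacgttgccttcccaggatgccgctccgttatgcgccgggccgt
Txnrd1, chr10:82858956-82859255, plus strand: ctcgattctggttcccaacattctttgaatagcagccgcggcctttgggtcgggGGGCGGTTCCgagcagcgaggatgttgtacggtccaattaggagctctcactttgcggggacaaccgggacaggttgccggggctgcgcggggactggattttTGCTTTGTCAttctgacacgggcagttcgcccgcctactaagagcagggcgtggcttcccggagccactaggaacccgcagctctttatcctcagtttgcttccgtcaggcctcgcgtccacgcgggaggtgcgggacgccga
Nqo1, chr8:107403156-107403455, minus strand: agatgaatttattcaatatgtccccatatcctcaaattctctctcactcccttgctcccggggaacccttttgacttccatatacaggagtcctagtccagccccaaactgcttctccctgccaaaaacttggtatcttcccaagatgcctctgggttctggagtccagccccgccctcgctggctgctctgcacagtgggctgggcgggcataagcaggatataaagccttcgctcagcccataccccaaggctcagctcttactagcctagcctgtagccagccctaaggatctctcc

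The Txnrd1 window held a strict antioxidant response element on its minus strand, whose leftmost base lies at -93 from the start site, and 1 loose NF-kB match at -196. The Sod2 and Nqo1 windows held none of the 4 motif forms, which says only that these letters are not in these 300 bases. Wider NF-kB forms, which would match the ggggttcccc in the Sod2 window, were not searched. Windows were matched for 7 of the 10 genes. Further core matches, each on the minus strand, were GCGTGGTCA at -56 in Sod1, GCACCGTCA at -134 in Gclm and GCTAGGTCA at 29 in Srxn1. The core form occurred in 12.4% of all 32851 promoter windows and the strict form in 3.04%, against 5.56% for the loose and 1.63% for the tight NF-kB form. These matches are descriptions of sequence and no binding was measured.

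The arrays gave 21478 tested genes, of which 18.7% differed between genotypes (limma's moderated test, Benjamini-Hochberg adjusted p under 0.05 over all genes), 7.66% being higher and 11% lower in Nod1 +/- aortas. With the arrays scaled on the median instead, 1600 genes were higher and 924 lower, against 1646 and 2369, and the median difference of all genes moved from -0.10 to 0.01 on the log2 scale. All values below are log2 signal minus the array's 75th percentile, so a value of 1 is 2-fold brighter than that percentile, and levels of different genes are not compared because they come from different probes. Nod1 itself, read by 1 probe, did not separate the genotypes (0.13, 95% confidence interval -0.32 to 0.59), and whether that probe lies in the deleted part was not stated. All 10 smooth-muscle markers and all 11 endothelial markers passed the filter on dim probes. The first replicates stood apart, Nod1 +/- replicate 1 with a skeletal-muscle list at 5.55 against 0.95 to 1.47 on the others and Nod1 -/- replicate 1 with a nerve and glia list at 1.85 against -1.33 to 0.52, so results are also given without both. Slide row 1 held Nod1 -/- replicates 1 and 2 and slide row 2 held 4 arrays, so a fit blocked on slide row compares the Nod1 +/- arrays with Nod1 -/- replicate 3 alone, which is also the value within row 2.

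Of the 10 genes, 9 passed the filter on dim probes, and 3 of these differed between genotypes: Sod2 and Txnrd1 were higher and Nqo1 was lower in Nod1 +/- aortas. The other 6 did not pass the threshold. The count of 3 in 9 stands beside 18.7% of all genes called, and was also 3 in the fit blocked on slide row, which called 4.81% of all genes. Taking every kept probe on its own, 3 of 10 passed against 16% of all kept probes, and 2 of the 9 genes (Sod2 and Nqo1) also reached 2-fold against 5.6% of all genes. The median difference over the 9 was -0.04, against -0.10 for all 21478 genes. The genotypes did not overlap for 5 of the 9, against 42.4% of all genes: 2 lay higher in Nod1 +/- (16.3% of all genes) and 3 lower (26.1%).

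**Figure D1:**
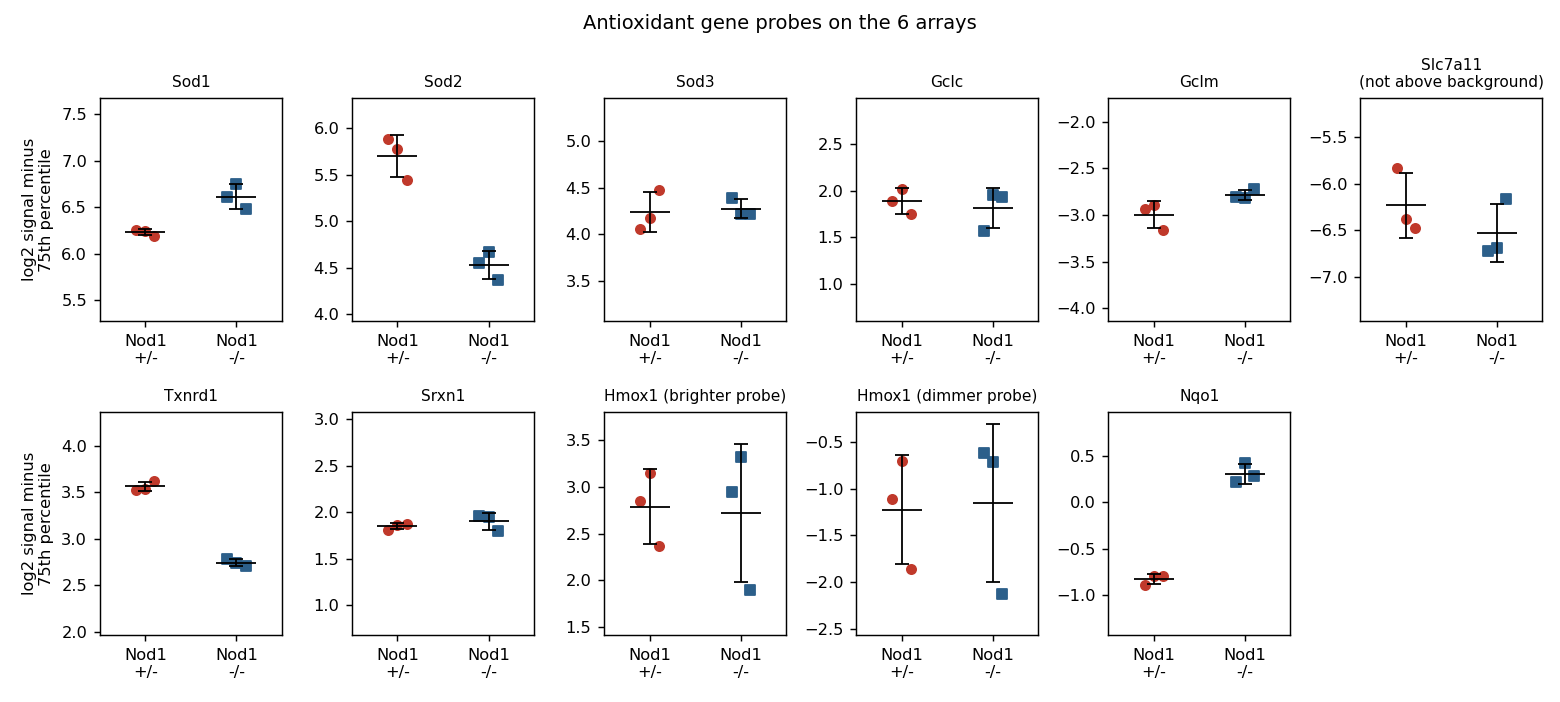
Log2 signal minus the array's 75th percentile for the 11 probes of the 10 genes, with 1 point per array (circles Nod1 +/-, squares Nod1 -/-), the mean as a bar and the SD as whiskers (n = 3); every panel spans the same height in log2 units. The genotypes do not overlap for Sod2, Txnrd1 and Nqo1, nor for Sod1 and Gclm, which were not called, beside 42.4% of all genes. Both Hmox1 probes spread widely within each genotype.

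Among the superoxide dismutases, Sod2 was the member that differed. Its probe (mm9 chromosome 17, 13208074 to 13208133) read 5.88, 5.78 and 5.45 on Nod1 +/- replicates 1 to 3 and 4.55, 4.67 and 4.37 on Nod1 -/- replicates 1 to 3. Every Nod1 +/- array was above every Nod1 -/- array, with a gap of 0.77 between the nearest pair. The mean was 5.70 ± 0.23 against 4.53 ± 0.15 (SD, n = 3), a 2.25-fold difference (log2 1.17, standard error 0.15; limma adjusted p = 0.00607). By size of difference Sod2 ranked 614 of 21478, so 2.85% of genes had a larger difference in the same direction. It was 1.33 in the row-blocked fit (adjusted p = 0.0373) and 1.09 without both first replicates (adjusted p = 0.075), where the call was lost.

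Sod1, the cytosolic copper and zinc enzyme, was read at 6.25, 6.25 and 6.20 in Nod1 +/- and 6.61, 6.75 and 6.48 in Nod1 -/- aortas. The genotypes did not overlap, but the difference of -0.38 (95% confidence interval -0.63 to -0.13, limma adjusted p = 0.0535) did not pass after adjustment over all genes. It passed under 4 of 19 alternative settings, with adjusted p from 0.0177 to 0.34 over all of them, and median scaling left it at -0.27. Sod3, the extracellular enzyme, was read at 4.05, 4.17 and 4.47 against 4.39, 4.21 and 4.21. These values overlapped fully, and the interval of the difference ran from -0.37 to 0.30 around -0.04. The upper bounds of Sod1 and Sod3, -0.13 and 0.30, lay below the lower bound of Sod2, at 0.80; the difference between these genes was not tested. Of the 4 genes of a list for copper delivery to these enzymes, 0 were called by limma, with a median of -0.12. Without both first replicates 0 were called, and 1 was lower with array weights and with a trended robust prior. The nearest to the threshold were Atox1, a cytosolic copper chaperone (-0.30, adjusted p = 0.0852), and Ccs, the chaperone that loads SOD1 (-0.19, adjusted p = 0.314).

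In the thioredoxin arm, Txnrd1 was higher and Srxn1 did not pass the threshold. Txnrd1, the selenoprotein that recharges cytosolic thioredoxin with electrons from NADPH, was read on mm9 chromosome 10 (82360230 to 82360289) at 3.52, 3.54 and 3.62 in Nod1 +/- and 2.78, 2.74 and 2.70 in Nod1 -/- aortas. The genotypes were 0.74 apart at their closest, and 1.58% of genes had a smaller spread within genotypes. Its means of 3.56 ± 0.05 and 2.74 ± 0.04 (SD, n = 3) differed 1.76-fold (log2 0.82, standard error 0.09; limma adjusted p = 0.00342). The difference was 0.86 in the row-blocked fit (adjusted p = 0.0319) and 0.86 without both first replicates, where its adjusted p of 0.0679 missed the threshold. Srxn1, sulfiredoxin, which repairs over-oxidised peroxiredoxins, was read at 1.81, 1.86 and 1.87 against 1.96, 1.95 and 1.80. The ranges overlapped, and the interval of its difference of -0.05 ran from -0.28 to 0.17 (limma adjusted p = 0.714), below that of Txnrd1 (0.61 to 1.03).

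Nqo1 went the other way. It encodes a quinone reductase that is commonly used as a readout of NRF2. Its probe (mm9 chromosome 8, 109912440 to 109912499, minus strand) read -0.88, -0.79 and -0.79 in Nod1 +/- and 0.22, 0.42 and 0.28 in Nod1 -/- aortas. At their nearest arrays the genotypes were 1.01 apart. The means of -0.82 ± 0.05 and 0.31 ± 0.11 (SD, n = 3) differed by -1.13, so the gene was 2.19-fold lower in Nod1 +/- aortas (standard error 0.10; limma adjusted p = 0.00195). This difference passed the threshold under all 19 alternative settings, between -1.17 and -0.82, with -1.10 in the row-blocked fit (adjusted p = 0.0258) and -1.14 without both first replicates (adjusted p = 0.0434). The lowest size, -0.82, came with normexp background correction.

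**Figure D2:**
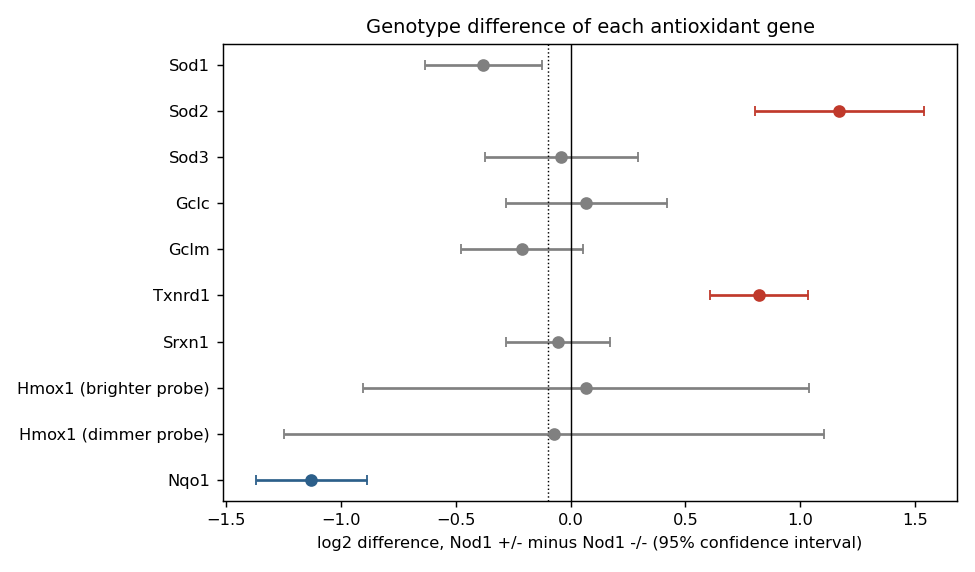
Difference between genotypes (log2, Nod1 +/- minus Nod1 -/-) with its 95% confidence interval for the 9 tested genes and the second Hmox1 probe; red is higher and blue lower in Nod1 +/- at limma's adjusted p under 0.05, grey did not pass, and the dotted line is the median of all genes at -0.10. The intervals of Sod2 and Txnrd1 lie above those of Sod1, Sod3 and Srxn1, and that of Nqo1 lies below every other gene except Hmox1.

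Hmox1, the inducible heme oxygenase that opens the heme ring to yield iron, carbon monoxide and biliverdin, varied more within genotypes than between them. Its brighter probe (mm9 chromosome 8, 77624207 to 77624266) read 2.85, 3.15 and 2.36 in Nod1 +/- and 2.95, 3.32 and 1.89 in Nod1 -/- aortas. Its dimmer probe (77620797 to 77620856) read -1.11, -0.70 and -1.86 against -0.61, -0.71 and -2.13. On both probes the third replicate was the lowest array of each genotype. The differences were 0.07 and -0.07, with intervals of -0.90 to 1.04 and -1.25 to 1.11, so a change within these bounds in either direction was not detectable with 3 arrays a genotype. The pooled SD of 0.60 exceeded that of 93.2% of genes. The row-blocked fit, which leaves the low Nod1 -/- replicate 3 as the only reference, gave 0.90 (adjusted p = 0.204), and leaving out Nod1 -/- replicate 3 gave -0.35 (adjusted p = 0.416). The mean of 13 macrophage markers was also lowest on the third replicate of each genotype (1.69 and 1.47, against 1.88 to 2.10 on the other 4 arrays), as was that of 6 fat markers (1.75 and 0.94, against 1.87 to 2.88). Within each genotype the red-cell (3.11 and 4.04), fibroblast (5.78 and 6.06) and nerve and glia means (-1.33 and -0.07) were lowest on the third replicate too. The part of any of these cell types in the Hmox1 values was not tested.

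Of the members that serve glutathione synthesis, neither Gclc nor Gclm passed the threshold, and Slc7a11 was not tested. From the lists described below, Gsr was 1.59-fold and Gss 1.43-fold higher in Nod1 +/- aortas (limma adjusted p = 0.00997 and 0.0499). Neither passed without both first replicates (limma adjusted p = 0.115 and 0.284). Their lists, of other NRF2 targets and of glutathione turnover, also held 4 and 2 genes called lower. Gclc, the catalytic subunit of glutamate-cysteine ligase, was read at 1.89, 2.02 and 1.75 in Nod1 +/- and 1.57, 1.95 and 1.93 in Nod1 -/- aortas. Its ranges overlapped, with a difference of 0.07 (95% confidence interval -0.28 to 0.42, limma adjusted p = 0.762). Gclm, the modifier subunit that raises the activity of the ligase, has a probe that spans 2636 bases of mm9 chromosome 3 (121962174 to 121964809), and was read at -2.94, -2.89 and -3.16 against -2.81, -2.82 and -2.72. The genotypes were 0.07 apart, and the difference of -0.21 (-0.48 to 0.05, limma adjusted p = 0.219) did not pass. Slc7a11, the cystine importer that supplies cysteine for glutathione, was not well above background on any of the 6 arrays (mm9 chromosome 3, 50169700 to 50169759), so no fold is given. Its dim readings, -5.83, -6.38 and -6.48 against -6.73, -6.69 and -6.17, overlapped. Over the 19 alternative settings run for each, none of Gclc, Gclm, Sod3, Srxn1 and Hmox1 passed the threshold.

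Some markers of other cell types differed between the same groups. In bulk vessels, fewer cells of a type and less RNA per cell cannot be told apart. Of 15 neutrophil markers, 10 were called higher and 0 lower in Nod1 +/- aortas. For this and the lists below, 7.66% of all genes were called higher and 11% lower. Of these 10, Cxcr2 and Mmp9 passed the filter through the Nod1 +/- arrays alone, since 0 of 3 Nod1 -/- arrays read them well above background. The mean log2 level of the list ran from 1.60 to 2.18 in Nod1 +/- and from -0.45 to -0.29 in Nod1 -/- aortas, and its summed linear level from 322.7 to 368.8 and from 165.8 to 220.6. Csf3r, the receptor for the granulocyte growth factor, weighs most in the Nod1 -/- sum and differed by -0.44 (limma adjusted p = 0.218). Within Nod1 +/- the third replicate was lowest for this list and for Sod2 and highest for Txnrd1, and within Nod1 -/- it was highest for this list and lowest for Sod2 and Txnrd1. Of 13 macrophage markers 2 were higher and 3 lower, with sums of 77.6 to 93.7 against 78.7 to 144.3. Of 11 endothelial markers 0 were higher and 3 lower (135.3 to 170.6 against 168.6 to 204.7), and of 9 nerve and glia markers tested 0 were higher and 1 lower (5.64 to 14.5 against 13.4 to 50.5). Of 7 fibroblast markers 0 were higher and 3 lower, with sums that did not overlap (949.5 to 962.8 against 1120.7 to 1157.1). The median difference of the 7 was nevertheless -0.001, and 42.4% of all genes taken singly did not overlap between genotypes. Of 9 red-cell markers 7 were tested and 0 called by limma, with sums that did not overlap either (941.5 to 1223.9 against 1275.6 to 1421.1). The nerve and glia mean ran from -1.33 to 0.30 in Nod1 +/- and from -0.07 to 1.85 in Nod1 -/- arrays. Mean log2 levels that did not overlap and lay lower in Nod1 +/- were endothelial (1.74 to 1.98 against 2.27 to 2.40) and fibroblast (5.78 to 5.88 against 6.06 to 6.19). The red-cell mean did so too (3.11 to 3.85 against 4.04 to 4.62). Macrophage, fat, smooth-muscle and skeletal-muscle means overlapped. Nqo1 ran from -0.88 to -0.79 in Nod1 +/- and from 0.22 to 0.42 in Nod1 -/- arrays. The part of these cells in the differences of Sod2, Txnrd1 and Nqo1 was not tested.

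**Figure D3:**
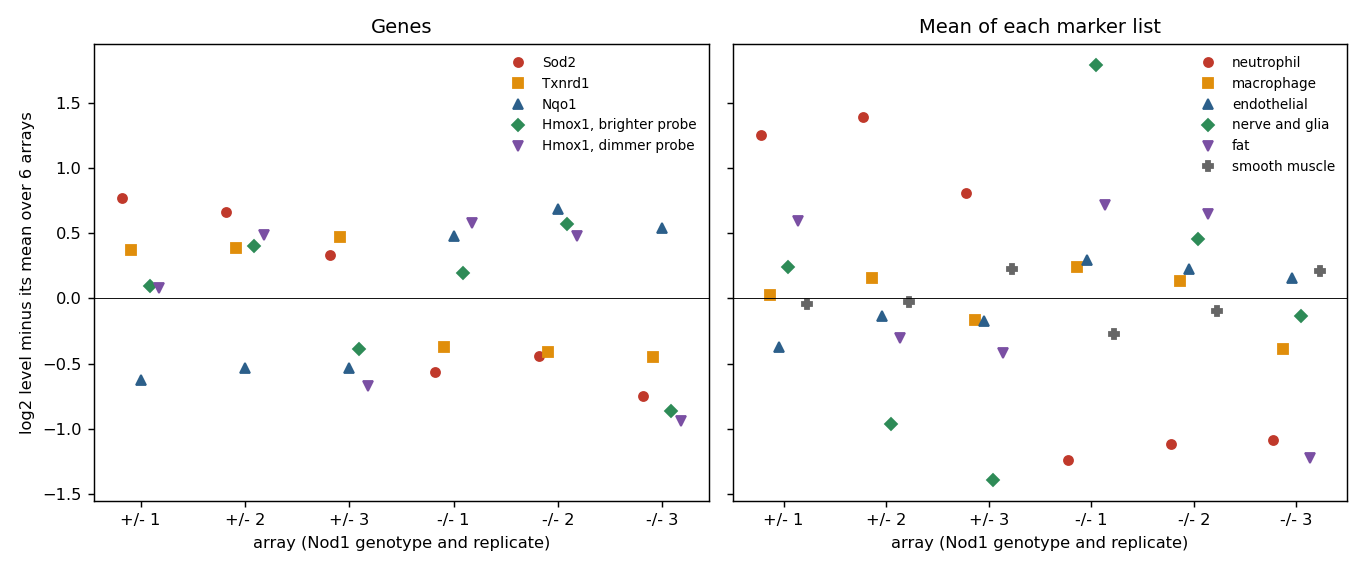
Level on each array minus its own mean over the 6 arrays (log2), for 4 of the antioxidant genes on the left and for the mean of 6 marker lists on the right, with 1 point per array. Sod2 and Txnrd1 lie high with the neutrophil list on the Nod1 +/- arrays and Nqo1 low, while Hmox1 is lowest on the third replicate of each genotype.

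Genes that control NRF2 were examined next, from a list of 15 that were all measured. NRF2 itself (Nfe2l2) was read at 2.95, 2.95 and 2.82 in Nod1 +/- and 3.01, 3.01 and 2.68 in Nod1 -/- aortas, a difference of 0.01 (limma adjusted p = 0.968). Keap1, its cytosolic inhibitor, differed by 0.08 (limma adjusted p = 0.588). In all 3 genes were higher, 0 lower and 12 not called, beside 7.66% of all genes higher and 11% lower, with a median of 0.15. They were Nfe2l1, a relative of NRF2 that controls proteasome genes (2.10-fold; limma adjusted p = 0.00467), Bach1, the repressor that competes with NRF2 (1.77-fold; limma adjusted p = 0.00484), and the small MAF gene Maff (2.13-fold; limma adjusted p = 0.00754). The other small MAF genes, Mafg (0.57) and Mafk (0.38), did not pass. All 3 passed without any single array, 2 passed in the row-blocked fit and 0 without both first replicates.

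Other textbook NRF2 targets were called in both directions. Of 27 tested from a list of 29, 3 were higher and 4 lower, beside 7.66% and 11% of all genes, with a median of -0.05 that turned to 0.05 with median scaling. Ephx1, the microsomal epoxide hydrolase, was 2.26-fold lower (limma adjusted p = 0.00173) and Pir, encoding pirin, a nuclear iron-binding protein, was 2.26-fold lower (limma adjusted p = 0.00434), both close to the size of Nqo1. A second, dimmer Ephx1 probe gave -0.79 (limma adjusted p over all kept probes = 0.00585). Abcc4, an efflux pump of organic anions, was 2.12-fold higher and Pgd, a pentose phosphate enzyme that makes NADPH, 1.58-fold higher (limma adjusted p = 0.00766 and 0.00858). The count lower was 2 without Nod1 -/- replicate 2 and 3 to 5 without any other single array, and the count higher stayed at 3. With the slide row as a block 1 was higher and 2 lower, and without both first replicates 0 and 1.

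The peroxide-removal list also holds thioredoxin, glutaredoxin and methionine sulfoxide reductase genes, whose products do not all act on peroxide. Of its 22 genes, all tested, 0 were called higher and 4 lower by limma, beside 7.66% and 11% of all genes. The list median was -0.06. Median scaling gave 0 higher, 3 lower and a median of 0.05, and array weights 1 higher and 6 lower. Msrb2, a mitochondrial methionine sulfoxide reductase, was 2.26-fold lower and Gpx7, a glutathione peroxidase of the endoplasmic reticulum, 1.72-fold lower (limma adjusted p = 0.00269 and 0.00916). Prdx4, the peroxiredoxin of the endoplasmic reticulum, fell by 0.63 and Cat, catalase, by 0.73 on the log2 scale (limma adjusted p = 0.0233 and 0.0321). Prdx4 lost its call on leaving out the Nod1 +/- array 1 (0.0729) or 3 (0.0509) and on leaving out the Nod1 -/- array 1 (0.0808) or 2 (0.0868). Cat lost it on leaving out any array except Nod1 +/- replicate 3 (0.0678 to 0.0895). The count lower was 2 without Nod1 +/- replicate 1 or Nod1 -/- replicate 1 or 2, and it was 1 in the row-blocked fit and 0 without both first replicates, while 1 gene was called higher without Nod1 +/- replicate 3. Txn1, the thioredoxin that Txnrd1 recharges (-0.07), and Txnrd2, the mitochondrial thioredoxin reductase (0.03), did not pass.

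**Figure D4:**
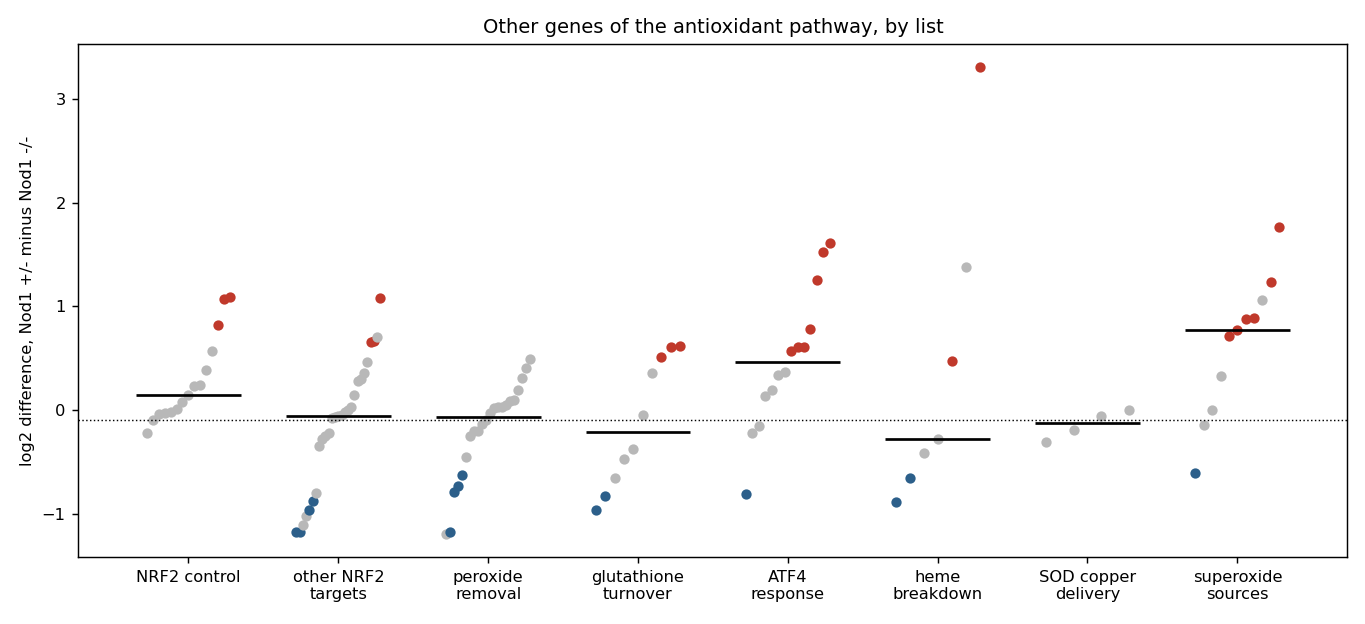
Difference between genotypes (log2, Nod1 +/- minus Nod1 -/-) for the tested genes of 8 lists, with 1 point per gene; red is higher and blue lower at limma's adjusted p under 0.05, grey did not pass, black bars are list medians and the dotted line the median of all genes. The lists of ATF4 response and superoxide sources have the highest medians, 0.47 and 0.77, and the peroxide-removal list holds 4 genes called lower.

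Around glutathione, 10 of 11 listed genes of its turnover were tested, of which 3 were higher and 2 lower beside 7.66% and 11% of all genes, with a median of -0.21, and with median scaling 0 were higher. Cbs, which opens the route from homocysteine to cysteine, was 1.94-fold lower and Anpep, a surface peptidase that completes glutathione breakdown, 1.77-fold lower (limma adjusted p = 0.00545 and 0.00873). Without both first replicates the list held 0 genes higher and 1 lower, Cbs (limma adjusted p = 0.0489). Anpep then missed the threshold (-0.69, limma adjusted p = 0.11). The row-blocked fit gave differences of -1.12 for Cbs and -0.80 for Anpep. Chac1, which cleaves glutathione inside cells, was 1.53-fold higher and Ggct, the cyclotransferase of the same cycle, 1.54-fold higher (limma adjusted p = 0.033 and 0.049). Both calls were lost when any array but Nod1 +/- replicate 3 was left out, with adjusted p from 0.0551 to 0.0962 for Chac1 and 0.0732 to 0.126 for Ggct, and 0 genes were higher in each of these fits. Slc3a2, the heavy chain that partners Slc7a11, differed by 0.36 (limma adjusted p = 0.0699). Slc7a11 is also a target of the transcription factor ATF4. In the list of ATF4 response genes, 7 of 14 were higher and 1 lower beside 7.66% and 11% of all genes, with a median of 0.47. Asns, asparagine synthetase, was 2.88-fold higher and the mitochondrial serine enzyme gene Shmt2 1.53-fold higher (limma adjusted p = 0.00396 and 0.00784). Slc7a5, the large neutral amino acid transporter, was 3.06-fold higher (limma adjusted p = 0.000851), although a dimmer probe gave -0.68 (limma adjusted p over all kept probes = 0.457) and the mean of both gave 0.47 (limma adjusted p = 0.316). Vldlr, a lipoprotein receptor, fell by 0.81 (limma adjusted p = 0.0139), a call that was lost without Nod1 -/- replicate 2 (0.052), and a dimmer probe gave -0.46 (limma adjusted p over all kept probes = 0.316). The count higher ranged from 3 to 7 without any single array, being 4 without Nod1 +/- replicate 1 and 3 without Nod1 -/- replicate 1 or 2, and was 2 in the row-blocked fit and 2 without both first replicates.

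Of 7 partners of heme oxygenase, all tested, 2 were higher and 2 lower beside 7.66% and 11% of all genes, with a median of -0.28. Hp, encoding the hemoglobin-binding haptoglobin, was 9.87-fold higher, and Blvrb, a biliverdin reductase, 1.84-fold lower (limma adjusted p = 0.00667 and 0.00916). The heme transporter genes Slc48a1 (-0.65; limma adjusted p = 0.018) and Flvcr1, named Mfsd7b on the array (0.47; limma adjusted p = 0.0255), also passed. Flvcr1 lost its call when any single array was left out (0.0521 to 0.0926), and Slc48a1 without Nod1 +/- replicate 1 or 2 or Nod1 -/- replicate 2 (0.0551 to 0.0737). Without both first replicates 0 of the list were higher and 0 lower. Hp was then at 3.12 and Blvrb at -0.90 (limma adjusted p = 0.0508 and 0.101). The row-blocked fit gave differences of 4.15 for Hp and -0.71 for Blvrb. Hmox2, the constitutive heme oxygenase, differed by -0.28 (limma adjusted p = 0.178).

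On the side of superoxide production, 11 of 14 listed genes were tested, of which 6 were higher and 1 lower beside 7.66% and 11% of all genes, with a median of 0.77 that was 0.40 after normexp background correction. Xdh, xanthine dehydrogenase, was 3.41-fold higher and Ncf4, a cytosolic subunit of the phagocyte NADPH oxidase, 2.36-fold higher (limma adjusted p = 0.006 and 0.0106). Cyba, the p22phox subunit, was 1.64-fold higher (limma adjusted p = 0.0248), and lost its call without Nod1 +/- replicate 2 (0.0671) or Nod1 -/- replicate 2 (0.0873) or 3 (0.0593). Nox4, the oxidase of smooth muscle and endothelium, was 1.52-fold lower (limma adjusted p = 0.0122), and lost it without Nod1 -/- replicate 1 (0.0502) or 2 (0.0542). Cybb, the catalytic subunit in phagocytes, differed by -0.15 (limma adjusted p = 0.695). Several of these subunits are abundant in neutrophils, whose 15 markers had a mean log2 level of 1.60 to 2.18 in Nod1 +/- and -0.45 to -0.29 in Nod1 -/- aortas. The part of those cells in this list was not tested. The count higher ran from 2 to 5 without any single array, being 2 without Nod1 +/- replicate 2 or Nod1 -/- replicate 2, 3 without Nod1 +/- replicate 1 or Nod1 -/- replicate 3, and was 3 in the row-blocked fit and 1 without both first replicates.

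The genes whose values over the 6 arrays lay nearest to each called gene were found by root mean square distance between centred log2 profiles. For Sod2 they were Mdn1 (0.0796), Slc41a2 (0.0929) and Dram1 (0.101), with genotype differences of 1.27, 1.15 and 1.34. For Txnrd1 they were Ifrd2 (0.0224), Gm6211 (0.0296) and Cpne8 (0.0505), with differences of 0.86, 0.83 and 0.82. For Nqo1 they were Ttc12 (0.0528), Ephx1 (0.0631) and Bmp3 (0.0648), with differences of -1.10, -1.18 and -1.08. Ephx1 is also among the other NRF2 targets above.

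**Figure D5:**
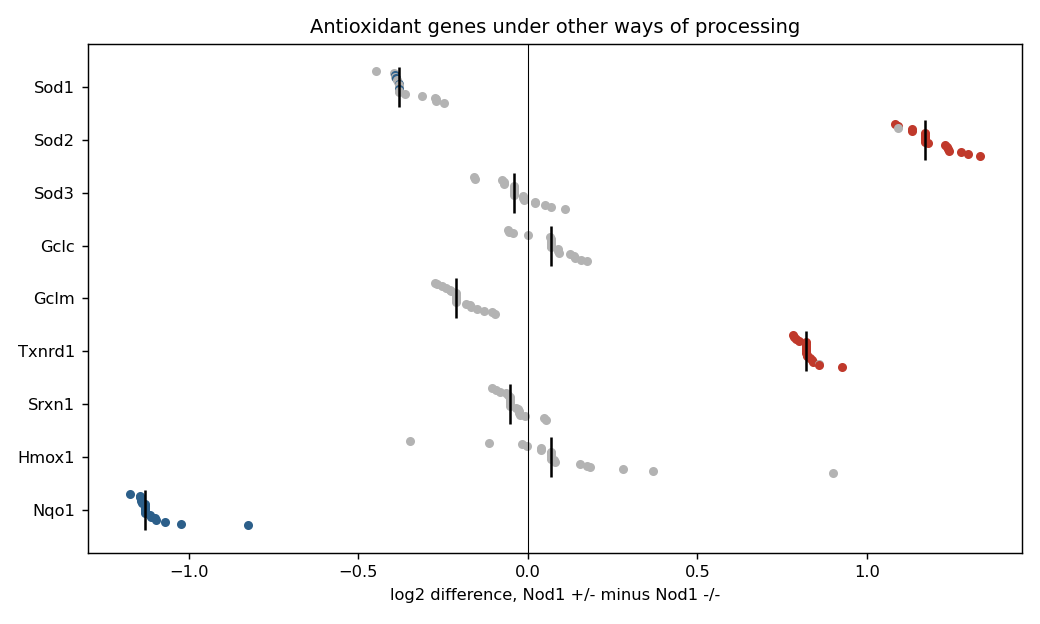
Difference between genotypes (log2) of each tested antioxidant gene under 19 alternative ways of processing, with 1 point per setting, coloured where limma's adjusted p was under 0.05 and grey where not; the black bar is the value reported above. Nqo1 is coloured in all 19 settings and Sod2 and Txnrd1 in 18, and Hmox1 runs from -0.35 to 0.90.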

How the data were processed

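Total RNA of fetal aortas was hybridised to 1-colour Agilent arrays, 3 per genotype. The deposited scanner files hold each spot's processed signal as a linear intensity, background-corrected by the scanner software, Feature Extraction, whose version is 10.7.1.1 in the file headers and 9.5.1.1 in the submitters' processing notes. The deposited value table of the same arrays, linear intensity with the same median of 33.4 in each column and scaled between arrays by the authors in a way not given in the sources used here, served as an alternative after log2. From these, control and outlier spots were left out, spots of a probe averaged, and log2 intensity minus each array's 75th percentile taken. A probe was kept if well above background on at least 3 of 6 arrays (30166 of 55681), and a gene was read by its brightest kept probe. Genotypes were compared with limma, without covariates, and p-values adjusted by Benjamini-Hochberg over 21478 genes. The fit was tested on simulated data. No kept spot was saturated, all arrays shared 1 slide and 1 scan time, and their number limits the precision. The members and lists were chosen with earlier results of these data known. Named from each list were up to 4 called genes of smallest p, or 2 where none was called. Nfe2l2, Keap1, Mafg, Mafk, Gsr, Gss, Txnrd2, Txn1, Slc3a2, Hmox2, Cybb, Csf3r, Cxcr2 and Mmp9 were named after their values were seen. Probe coordinates are mm9, as the files give them. The tools were R 4.3.3 and limma 3.58.1.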

Additional observations from a re-analysis of the deposited data

How the results depend on the processing

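Over all genes, 4015 passed, 2524 with median scaling, 1639 with no filter on dim probes, 6026 with array weights, 1034 with the slide row as a block, 639 without both first replicates and 1203 at 2-fold or more; leaving out 1 array gave 1468 to 3390. Of the antioxidant genes 3 passed, 1 without both first replicates and 3 to 3 with 1 array left out. Of the 110 pathway genes 38 passed, 21 with no filter, 15 with the row block, 5 without both first replicates and 12 at 2-fold or more, and 19 to 36 with 1 array left out. The cause of these shifts was not tested, though fewer arrays and the 2-fold rule are narrower by construction. Among the 3 called antioxidant genes and the 38 called pathway genes, no difference changed sign under the settings run, although a second Slc7a5 probe taken alone gave -0.68. Sod1 passed with normexp (-0.39), the filter on all 6 arrays (-0.38), a trended robust prior (-0.38) and array weights (-0.39), while Sod2 (1.09) and Txnrd1 (0.86) missed the threshold without both first replicates. Replicate numbers are no stated pairing: same-numbered arrays correlated at 0.083, 0.277 and 0.111 in their deviations, so not all exceeded 0.1. With the replicate block, 4041 genes passed, 3 of them antioxidant genes and 37 pathway genes. With 3 arrays a genotype, dim probes such as that of Slc7a11 give no usable difference.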
